A study of Bos taurus
Mus musculus with 10 samples.

Results

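The data follow 10 transcriptional targets of the tumour suppressor p53 in 2 kinds of cell that shared the same wells: mouse fibroblast feeders arrested with mitomycin C, and dividing bovine embryonic stem cells. The members are CDKN1A, CCNG1, GADD45A, PLK2, MDM2, ZMAT3, BAX, PHLDA3, SESN2 and GDF15. They were chosen by name as known p53 targets, by symbol in the bovine table and by NCBI gene ID in the mouse table. All 10 were found among 27590 bovine and among 31349 mouse genes, and all 10 passed the filter on low values in both tables.

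Wild-type bovine lines 1, 2, 4, 8 and 11, derived from blastocysts of day 7.5, were each grown on feeders from E13.5 CD-1 mouse fetuses that had received mitomycin C for 2 h. Every line was kept in medium with 2.5 µM IWR-1 and divided over 2 wells. For 1 day, 1 well kept that medium and the other received medium without IWR-1, which gave 5 wells per medium. All feeders, in both media, had been treated with mitomycin C, so no untreated feeders are part of the comparison, and the labels do not say whether the feeders of different lines came from 1 preparation. IWR-1 is a tankyrase inhibitor: it keeps AXIN from being degraded, and AXIN holds canonical Wnt signalling down.

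In cells with damaged DNA, p53 escapes from its ubiquitin ligase MDM2 and switches on genes that halt the cell cycle, repair DNA or start cell death, and MDM2 itself, which closes a feedback loop. Mitomycin C crosslinks DNA strands, which blocks replication, and is used for that reason to arrest feeder cells. Several members also answer to other inputs: GADD45A, SESN2 and GDF15, for example, are induced by ATF4 in the response to amino acid shortage and endoplasmic reticulum stress.

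Each library held 48064953 to 64345738 reads on bovine genes and 17101894 to 35223039 on mouse genes. Mouse reads made up 21.2% to 42.3% of a well's assigned reads; they were highest in both wells of line 4 (42.3% and 41.4%) and lower without IWR-1 in all 5 lines. The bovine cells carried transcripts of all 15 pluripotency markers found in the table, with a summed level of 2651 to 4531 RPM (reads per 1000000 reads of the species' own table). That sum was lowest in the wells of line 4, at 2728 with IWR-1 and 2651 without it. Bovine fibroblast and mesenchyme markers (18 genes, 17 of them above the filter) summed to 4799 and 5083 RPM in line 4, against 1018 to 2463 in the other lines. Mouse cell cycle and fibroblast genes were not analysed here, because the mouse table gives IDs without names.

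The first comparison set feeders beside stem cells. CDKN1A encodes the cyclin-dependent kinase inhibitor that carries out the p53-dependent arrest, and it was the member whose RPM levels had the largest feeder to stem cell ratio. By percentile rank among tested genes GADD45A lay furthest apart (34.1 points, against 33.98 for CDKN1A). Cdkn1a had a median percentile of 99.2 in the feeders, near the top of that scale. In the feeders, Cdkn1a (NCBI gene ID 12575) took 854, 774, 790.1, 607 and 668 RPM in the wells of lines 1, 2, 4, 8 and 11 with IWR-1, and 809, 699, 798, 682 and 699.9 without it. In the stem cells, CDKN1A (gene ID 513497) took 36.6, 29.1, 29.6, 25.4 and 44.7 RPM with IWR-1, and 31.0, 26.1, 29.9, 25.6 and 55.0 without it. The 2 sets of wells did not come near each other, and the lowest feeder well was more than 10 times the highest stem cell well. Within a well the Cdkn1a level was 12.7 to 26.8 times the CDKN1A level. The mouse share of the wells ran from 21.2% to 42.3%, and its part in the bovine CDKN1A level was not tested. The sources used here do not say what was done with reads that fit both genomes.

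The tables of the 2 species were normalised separately and RPM levels are not corrected for transcript length, so no test was made across them. In bulk libraries, fewer cells of a type and less RNA per cell cannot be told apart. Species, cell type and mitomycin C treatment differ together between feeders and stem cells and cannot be told apart.

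**Figure D1:**
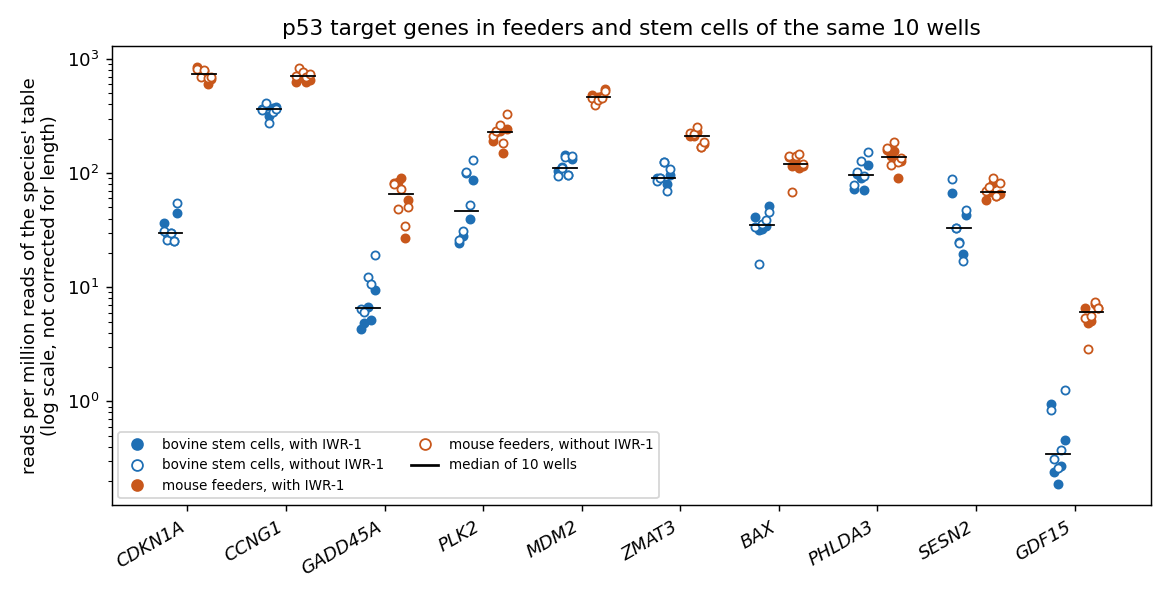
RPM, reads per 1000000 reads of the species' own table (log axis), for the 10 p53 targets in bovine stem cells (blue) and mouse feeders (orange), with one point per well, filled with IWR-1 and open without it, and a bar at the median of 10 wells. The Cdkn1a points of the feeders lie between 607 and 854, and those of CDKN1A in the stem cells between 25.4 and 55.0.

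All 10 members had a larger mean log2 level in the feeders, and 8 did so in each of the 10 wells. The share of all genes that do so is not known, because mouse genes had IDs without names and were not paired with bovine genes. Among the genes of arrest, Ccng1, which encodes cyclin G1, a regulator of the p53 loop, took 626 to 826 RPM in the feeders and 277 to 410.4 in the stem cells. Gadd45a, whose product binds PCNA and restrains the cell cycle, took 27.2 to 89.8 in the feeders and 4.27 to 19.0 in the stem cells. Plk2, a polo-like kinase of centriole duplication, took 151 to 331 and 24.4 to 129.8. The ranges of these 3 genes did not overlap between the cell types, and the share of all genes for which this holds is not known either.

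Mdm2 in the feeders took 391 to 543 RPM, against 95.1 to 144 for MDM2 in the stem cells. Zmat3, an RNA-binding regulator of splicing, took 169.7 to 253 against 69.0 to 126. Of the genes tied to cell death, Bax, the pore-forming BCL2 relative of the outer mitochondrial membrane, took 68.9 to 148 against 15.8 to 51.7. Phlda3, a pleckstrin-homology protein that competes with AKT for membrane lipids, had the smallest RPM ratio, at 91.3 to 186 and 71.5 to 153, and was higher in the feeders in 9 of 10 wells. By percentile rank CCNG1 was closest (1.45 points, against 4.23 for PHLDA3). Its median percentiles, 97.8 in the stem cells and 99.1 in the feeders, both lay near the top of the scale.

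The remaining pair also respond to metabolic stress. Sesn2, an inhibitor of mTORC1 that senses leucine, took 57.9 to 90.2 RPM in the feeders and 17.1 to 89.0 in the stem cells, and the feeder level was the higher one in 8 of 10 wells; both exceptions were wells of line 1. Gdf15, a secreted stress cytokine, was low in both, at 2.87 to 7.44 and 0.187 to 1.25 RPM, which in the stem cells rested on 9 to 76 reads per well.

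The bovine proliferation genes differed widely in level in the stem cells. MKI67 took 337 to 925 RPM and TOP2A, the replication-linked topoisomerase, 881 to 1372. These were the highest medians among the 20 listed genes. The lowest was that of CDC25C, at 23.3 RPM (18.7 to 30.6).

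The second comparison asked, within each line, what 1 day without IWR-1 did to these genes. In the stem cells 1 of the 10 members, GADD45A, rose and none fell. Of all 18506 bovine genes, 0.951% were called, 0.886% rose and 0.0648% fell. The other 9 bovine members had log2 fold changes between -0.21 and 0.52 and adjusted p-values from 0.0554 to 0.993 (limma, line as a block). The median log2 fold change of the 10 members was 0.05, against -0.0046 for all tested genes, and 6 members were above 0, as were 48.4% of all genes. An unadjusted p under 0.05 was reached by 3 members and by 10.1% of all genes. In the feeders none of the 10 members was called, against 4.19% of 15871 mouse genes (2.14% rose and 2.05% fell). Their log2 fold changes lay between -0.19 and 0.21, 6 of them above 0, as for 49.9% of mouse genes. There 3 members had an unadjusted p under 0.05, as did 16.2% of all mouse genes, and edgeR and DESeq2 called 0 members too.

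GADD45A (gene ID 505463) had normalised read counts of 267, 303, 384, 298 and 567 in lines 1, 2, 4, 8 and 11 with IWR-1, and 401, 406, 706, 623 and 1127 without it. The count was higher without IWR-1 in every line, and the ranges of the media overlapped because the lines differed: the well of line 11 with IWR-1 lay above both wells of lines 1 and 2. The mean went from 364 ± 122 to 653 ± 297 (SD, n = 5), a 1.72-fold rise (log2 fold change 0.79 ± 0.11 SE, 95% interval 0.55 to 1.02, limma adjusted p = 0.0114). The smallest rises within a line were 0.42 in line 2 and 0.58 in line 1 on the log2 scale, and the largest were 0.99 in line 11 and 1.06 in line 8.

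The call for GADD45A ended without line 11 (log2 fold change 0.74, limma adjusted p = 0.0794) and stood without any other single line. It rested on the pairing: without the line as a block the standard error was 0.31 and the adjusted p 0.999974, as the spread between lines then counts as error. The mouse share of the well was also lower without IWR-1 in every line. With that share as a covariate the log2 fold change was 0.67 ± 0.24 SE and no bovine gene was called by limma, with 456 genes at an unadjusted p under 0.05.

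In the feeders of the same wells, Gadd45a (gene ID 13197) had normalised counts of 1734, 1837, 1906, 602 and 1267 with IWR-1 and 1688, 1142, 1531, 732 and 1093 without it. Without IWR-1 it stood below its partner well in 4 of 5 lines, stood higher in line 8, and was not called (log2 fold change -0.19 ± 0.11 SE, 95% interval -0.43 to 0.05, limma adjusted p = 0.446). Its value was -0.071 without line 2 and -0.31 without line 8 (limma adjusted p = 0.0742). The bovine interval lies wholly above the mouse one. The 2 tables were normalised separately and the difference between species was not tested.

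**Figure D2:**
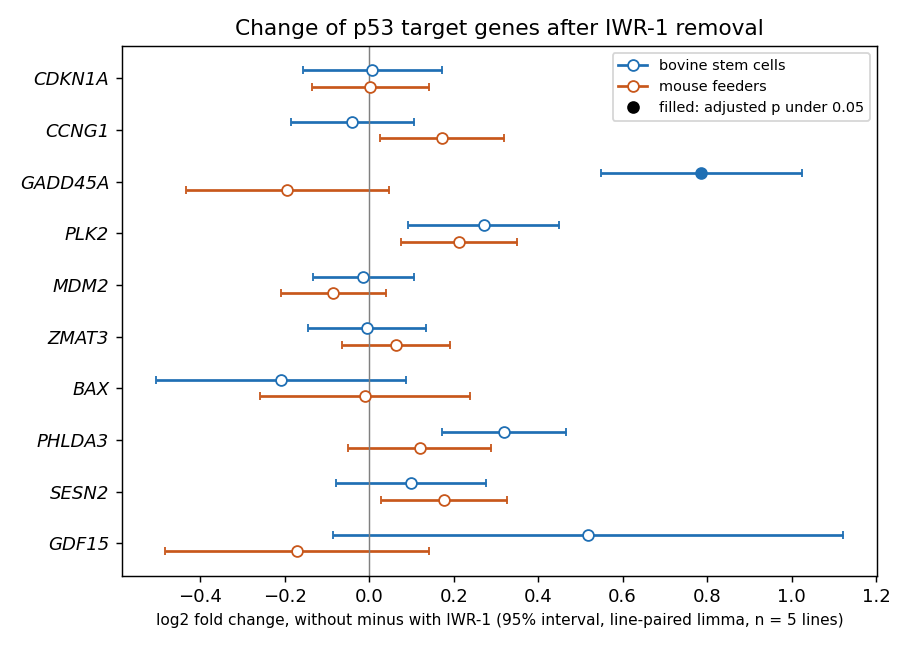
Log2 fold change without minus with IWR-1 for the 10 p53 targets in bovine stem cells (blue) and mouse feeders (orange), from the line-paired limma fit over 5 lines, with 95% intervals; filled points have an adjusted p under 0.05. Bovine GADD45A, at 0.79, carries the single filled point.

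PHLDA3 stood just short of the threshold in the stem cells. Its normalised counts were 4526, 6051, 5133, 4113 and 7016 with IWR-1 and 4968, 6782, 7300.2, 5484 and 9087 without it, higher in all 5 lines with overlapping ranges (log2 fold change 0.32 ± 0.07 SE, 95% interval 0.17 to 0.47, limma adjusted p = 0.0554). It passed without line 2 (adjusted p = 0.0347) and with DESeq2 (adjusted p = 0.00466), and edgeR gave an adjusted p of 0.0589. Omitting line 1, 4, 8 or 11 instead moved PHLDA3 away from the threshold, to limma adjusted p-values of 0.117, 0.227, 0.121 and 0.308. With no filter on low values the limma adjusted p was 0.126. With the mouse share as a covariate its log2 fold change was 0.34 ± 0.16 SE and it was not called. Phlda3 in the feeders was at 0.12 ± 0.08 (adjusted p = 0.526), higher in 4 of 5 lines, and at 0.19 without line 2 and 0.048 without line 8.

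PLK2 was higher without IWR-1 in all 5 lines in both species, although neither table called it. Bovine PLK2 went from 1524, 1753, 5699.9, 2279.9 and 5182 to 1616, 2057, 5853, 3082 and 7689 normalised reads in lines 1, 2, 4, 8 and 11 (log2 fold change 0.27 ± 0.08 SE, limma adjusted p = 0.206). Mouse Plk2 went from 4065, 4963, 4968, 3337 and 5386 to 4472, 5459, 5511, 3897 and 7175 (0.21 ± 0.06, adjusted p = 0.0894). Line 11 had the largest difference in both. In all, 3 bovine members (GADD45A, PHLDA3 and PLK2) and 3 mouse members (Plk2, Ccng1 and, downward, Mdm2) had the same sign in 5 of 5 lines, against 11.1% and 15.7% of all tested genes. Bovine genes were higher without IWR-1 in all 5 lines in 6.20% of cases and lower in 4.92%, and mouse genes in 7.83% each. The ranges of the media overlapped for all 10 members in both species, and failed to overlap for 0.113% of bovine and 0.554% of mouse genes. With the mouse share as a covariate the bovine PLK2 value was -0.09 ± 0.14.

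**Figure D3:**
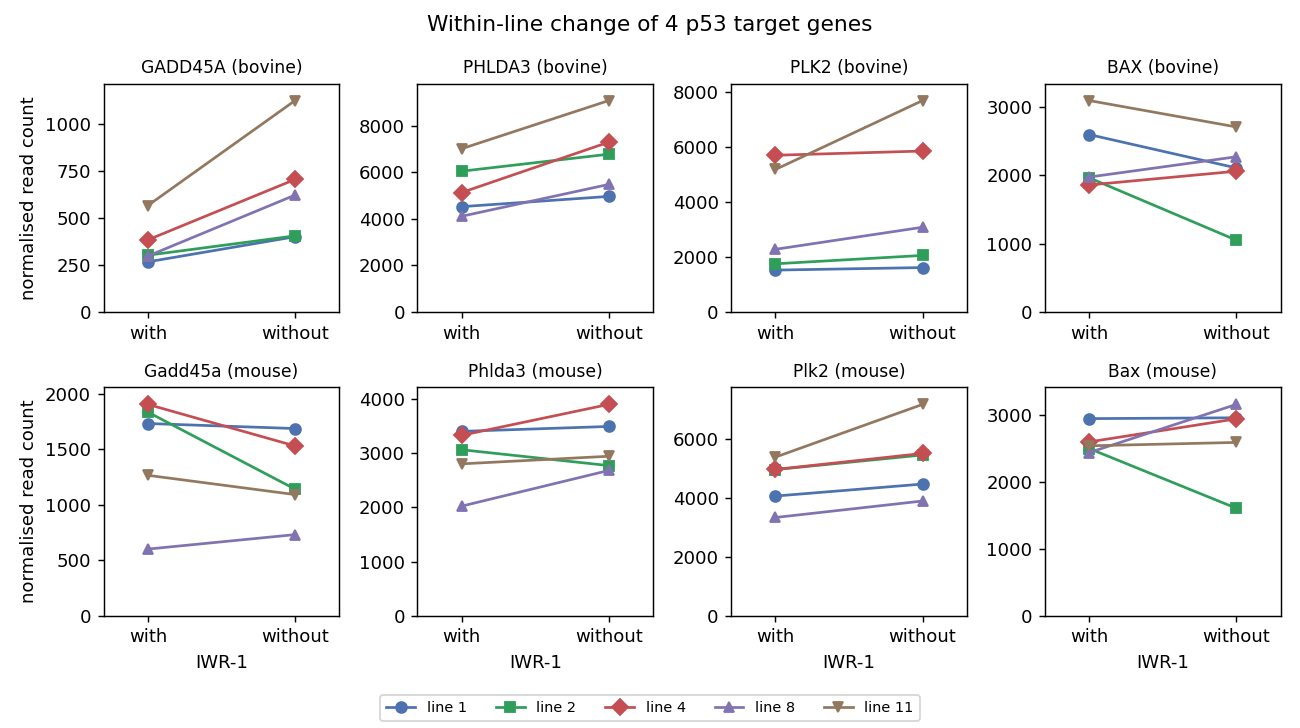
Normalised read counts of GADD45A, PHLDA3, PLK2 and BAX with and without IWR-1, in bovine stem cells (upper row) and mouse feeders (lower row), with 1 line of the plot per stem cell line. All 5 lines of bovine GADD45A slope upward, 267 to 401 in line 1 and 567 to 1127 in line 11, and BAX lies lower without IWR-1 in line 2 in both species.

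CDKN1A, MDM2 and ZMAT3 in both species, and CCNG1 in the stem cells, had intervals that held 0. CDKN1A had a log2 fold change of 0.01 ± 0.07 SE in the stem cells, with a 95% interval of -0.16 to 0.17, and 0.00 ± 0.06 in the feeders, with an interval of -0.13 to 0.14. MDM2 was at -0.01 (-0.13 to 0.11) and Mdm2 at -0.08 (-0.21 to 0.04). ZMAT3 was at -0.01 (-0.15 to 0.14) and Zmat3 at 0.06 (-0.06 to 0.19). CCNG1 was at -0.04 (-0.19 to 0.11). In this fit the intervals printed in this paragraph reach no further than -0.21 and 0.19 on the log2 scale. With the mouse share as a covariate, bovine CDKN1A was at -0.21 ± 0.16 SE and bovine MDM2 at -0.13 ± 0.13. Intervals of SESN2, BAX and GDF15 in the stem cells, and of Bax, Gdf15, Phlda3 and Gadd45a in the feeders, also held 0.

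Ccng1 in the feeders had an interval above 0 before adjustment over all genes, 0.02 to 0.32 around 0.17 ± 0.07 SE, and was not called, with values of 13353, 14883, 15753, 13865.5 and 14250.5 with IWR-1 and 14889, 19284, 16254, 14927 and 16114 without it (limma adjusted p = 0.22). Sesn2 was at 0.18 ± 0.07 (adjusted p = 0.208), and SESN2 in the stem cells at 0.10 ± 0.08 (adjusted p = 0.804). GDF15 had the widest interval of the bovine members, -0.09 to 1.12 around 0.52, at 10.7 to 59.7 normalised reads with IWR-1 and 15.0 to 73.9 without it. Without line 11 the GDF15 value was 0.29, and without line 1 that of SESN2 was 0.019. Gdf15 in the feeders was at -0.17 ± 0.14, and at -0.049 without line 2. BAX was at -0.21 ± 0.13 in the stem cells and Bax at -0.01 ± 0.11 in the feeders, and in both the well of line 2 without IWR-1 was the lowest, at 1050.1 and 1609 normalised reads. Without line 2 BAX was at -0.036 and Bax at 0.15.

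Other genes of the pathway were read from lists for the bovine table. Of all 18506 tested bovine genes, limma called 0.951%, 10.1% had an unadjusted p under 0.05 and 48.4% had a positive value. These shares stand for comparison with each list below. Among 15 tested regulators of the pathway limma called 0, with 0 at an unadjusted p under 0.05 and 0 by edgeR and DESeq2. The checkpoint kinase gene CHEK1 was at 0.09 ± 0.05 SE (limma adjusted p = 0.653), the deacetylase gene SIRT1 at -0.06 and PPM1D, the phosphatase that turns p53 off, at -0.05. Of 22 further targets that act in arrest and repair 0 were called by limma or edgeR, 3 had an unadjusted p under 0.05, and 16 had a negative value (median -0.05). The antiproliferative gene BTG2 was at -0.32 ± 0.07 and lower in 5 of 5 lines (limma adjusted p = 0.0767); DESeq2 called it. PLK3 was at -0.18 and RPS27L at -0.16.

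Of 15 tested targets that act in cell death 1 rose and 0 fell, against 0.886% and 0.0648% of all tested genes. An unadjusted p under 0.05 was reached by 3, and edgeR and DESeq2 called 1 each. The gene that rose was PERP, which encodes a desmosome-associated membrane protein of epithelia and a p53 target, with 5967 ± 2492 normalised reads with IWR-1 and 8079.6 ± 4005 without it (SD, n = 5). Its log2 fold change was 0.39 ± 0.07 SE, higher in 5 of 5 lines (limma adjusted p = 0.0287). SPATA18 was at 0.23, CASP6, an executioner caspase, at -0.15 and PMAIP1, which encodes the BH3-only protein NOXA, at 0.20, none of them called. Among 17 paralogues of the members 0 were called by limma or edgeR and 1 by DESeq2, CCNG2, with 4 at an unadjusted p under 0.05. CCNG2, the relative of CCNG1, was at -0.26 ± 0.06 (limma adjusted p = 0.0891) and lower in 5 of 5 lines. GADD45B was at 0.68 ± 0.23 (adjusted p = 0.310) on few reads, 59.5 ± 39.9 and 111 ± 93.0 (SD, n = 5), and BOK was at 0.22.

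Among 10 CDK inhibitors and senescence genes 0 were called by limma, edgeR or DESeq2, with 2 at an unadjusted p under 0.05. The chromatin protein gene HMGA2 was at 0.21, IGFBP3 at 0.22, CDKN2C at -0.57 ± 0.31 and CDKN1B at 0.10. None of the 20 proliferation genes was called by limma, edgeR or DESeq2, with 0 at an unadjusted p under 0.05. Their log2 fold changes ran from -0.07 to 0.13, the latter that of CDC25C, and FOXM1 was at 0.09, CCNA2 at 0.06 and BUB1 at -0.06.

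The ATF4 response, which shares SESN2, GDF15 and GADD45A as targets, had 1 of 14 tested genes called, the serine synthesis gene PSAT1 (0.60 ± 0.10 SE on the log2 scale, limma adjusted p = 0.0224). edgeR called 2 of the 14, and 190 of all 18506 tested genes. DESeq2 called 4 of the 14 (ATF3, CHAC1, PSAT1 and TRIB3), and 422 of all tested genes. An unadjusted p under 0.05 was reached by 7 of the list, against 10.1% of all tested genes. The list's median was 0.22, against -0.0046 for all tested genes. Of the 14 values 10 were positive, against 48.4% of all tested genes. TRIB3, a pseudokinase induced by ATF4, was at 0.70 ± 0.14 (adjusted p = 0.0532), ATF3 at 0.62 ± 0.13 (adjusted p = 0.0647) and CHAC1 at 0.34 ± 0.09 (adjusted p = 0.164). ATF4 itself was at 0.20 (limma adjusted p = 0.624) and was lower without IWR-1 in line 2. The 4 negative values were those of DDIT4 (-0.21), VLDLR (-0.13), PPP1R15A (-0.04) and DDIT3 (-0.04).

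For every member the line took a larger share of the sum of squares than the medium. There were more lines than media, and a term with more levels can take up more of this sum. These shares therefore do not show whether line or medium mattered more, and shares over all genes are not given. The stem cell line took 55.8% (GADD45A) to 98.0% (SESN2) of the sum of squares of the log2 values of the bovine members, and the medium 0.0115% to 40.3%. In the feeders, the line of the well took 47.7% (Ccng1) to 93.0% (Zmat3) and the medium 0.0157% to 36.9%. Bovine GADD45A and mouse Ccng1 had the largest shares for the medium. For every member the ratio of the highest to the lowest well, in normalised reads, was smaller in the feeders than in the stem cells. It was 1.35 against 2.23 for CDKN1A and 1.53 against 5.61 for SESN2. The share of all genes for which this holds is not known.

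The lines ranked differently by member. Line 11 was the highest line in both media for 4 of the 10 bovine members (CDKN1A, GADD45A, BAX and PHLDA3), as it was for 10.0% of all tested bovine genes. Line 8 was the lowest in both media for 4 members (CDKN1A, MDM2, ZMAT3 and SESN2), against 10.9% of all genes. In the feeders the wells of line 8 were lowest in both media for 5 members (Cdkn1a, Zmat3, Phlda3, Gadd45a and Plk2), against 10.0% of mouse genes. Gadd45a was furthest down there, at 602 and 732 against 1093 to 1906 in the wells of the other lines. The members share their wells, so these counts have no test.

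Bovine PLK2 was high in lines 4 and 11, at 5182 to 7689 normalised reads, and low in lines 1, 2 and 8, at 1524 to 3082. The summed bovine fibroblast markers were also highest in lines 4 and 11 (2417 to 5083 RPM, against 1018 to 1777 in lines 1, 2 and 8), as was the mouse share with IWR-1 (42.3% and 33.3%, against 23.4% to 27.4%). The part of either in the PLK2 level was not tested.

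SESN2 followed another order. Its line 1 wells held 4175 (with IWR-1) and 5583 (without) normalised reads, against 996 to 2804 in the other lines, and line 11 came next. Line 1 was also the highest line in both media for 13 of the 14 ATF4 genes, against 12.2% of all bovine genes. PPP1R15A, highest in line 11, was the exception. The 14 genes share their wells, and the part of the ATF4 response in the SESN2 level was not tested. TRIB3 stood at 2073 and 3265 in line 1 against 71.3 to 201 elsewhere, and CHAC1 at 3439.97 and 4665 against 119 to 311. Bovine GDF15 was highest in line 1 with IWR-1 (59.7 normalised reads) and in line 11 without it (73.9). GADD45A had the opposite place: line 1 was its lowest line in both media, at 267 and 401 normalised reads. In the feeders Sesn2 did not share this order: with IWR-1 its lowest well was that of line 1, at 1234.

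**Figure D4:**
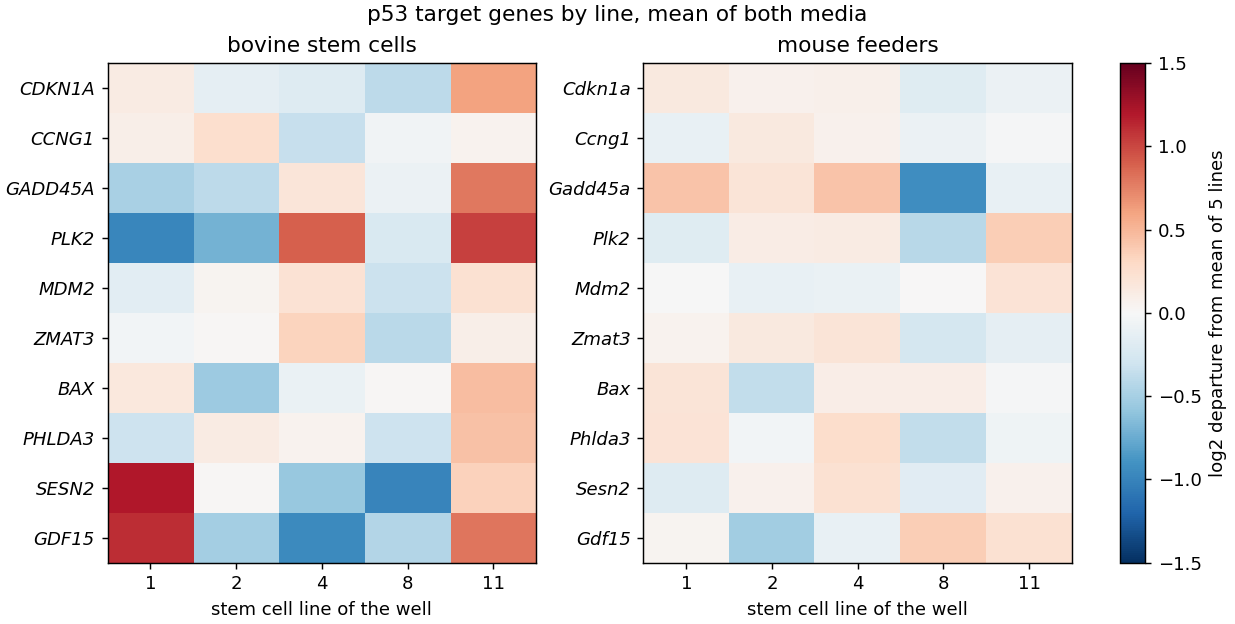
Departure of each p53 target from its mean over 5 lines, in log2 normalised reads averaged over both media, for bovine stem cells (left) and mouse feeders (right); red is above and blue below the mean. SESN2 in line 1 is the highest cell at 1.20 and SESN2 in line 8 the lowest at -0.99, and the feeder panel is paler apart from Gadd45a in line 8.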

How the data were processed

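RNA of 10 wells, each with bovine stem cells and mouse feeders, was sequenced after poly(A) selection, and reads were mapped separately to ARS-UCD1.3 and GRCm39, per the labels. Tools listed in the submitters' processing notes are featureCounts 1.5.0-p3, HISAT2 2.0.5, fastp and StringTie 1.3.3b. For each species, the table that the authors deposited holds a scaled signal for every gene in every library. Each library's values were whole multiples of 1 step, and dividing by it gave whole reads for 100% of positive values at a tolerance of 0.01 reads. RPM levels and the count tests use these recovered reads. Of the mouse columns, 2 had no sample label and were not used. Bovine names came from a RefSeq table of ARS-UCD2.0 (24660 of 27590 IDs matched); since that build differs, no coordinates are given. Mouse members were taken by ID.

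Values were tested as log2(value + 1) with limma 3.58.1 in R 4.3.3, its trend option on, and line and medium as terms. Genes reaching 10 in 5 or more libraries entered. Benjamini-Hochberg adjusted p-values under 0.05 over all tested genes were called, and only called genes are said to rise or fall. Fold changes on this scale understate those of low genes. The same lines make both wells of a pair, per the labels, and deviations from the medium means correlated within lines at 0.617 to 0.883 (bovine) and 0.488 to 0.725 (mouse). Each line gave 1 well per medium, so p-values weigh the mean within-line difference against the spread of these differences over the 5 lines. The spread between wells of the same line and medium was not measured. Alternatives included edgeR 4.0.16 and DESeq2 1.42.0. The fit was also run on simulated counts. These held no shift in mouse share between the media, so that run cannot speak to its part.

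Members and lists were chosen with earlier results of these data known. Named genes are the 10 members and, from each list, up to 4 genes, called ones first and then those with the smallest adjusted p. ATF4, MKI67, TOP2A, PPP1R15A, DDIT4, VLDLR and DDIT3 were named after their values were seen. A further gene that the rule names is not reported here.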

Additional observations from a re-analysis of the deposited data

Results flagged for a closer look

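Bovine CDKN1A in the well of line 11 without IWR-1 stood at 3255 normalised reads, away from the other 4 wells of that medium at 1494 to 1947. The gap to the nearest well was 0.743 of the group's range, above Dixon's critical value of 0.71 for 5 wells. It was the single well so marked among 40 groups (10 members, 2 species, 2 media), where chance marks about 1 group in 20. Without line 11 the bovine CDKN1A log2 fold change was -0.06, against 0.01 with all 5 lines.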

How the results depend on the processing

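Without the replicate block limma called 0 bovine genes (105 at an unadjusted p under 0.05), 0 bovine members and 0 mouse genes (584 at an unadjusted p under 0.05). With the mouse share as a covariate beside the replicate block it called 0 bovine genes, 0 bovine members and 0 mouse genes (687 at an unadjusted p under 0.05), and the uncalled values of CDKN1A (-0.21), GDF15 (-0.21), PLK2 (-0.086), Cdkn1a (-0.061) and Bax (0.096) changed sign. The counts with all 5 lines and the block were 176 bovine and 665 mouse genes. Without a filter on low values 53 bovine and 329 mouse genes were called, with more genes tested. DESeq2 with the block called 422 bovine genes and 2 bovine members, and edgeR 190 and 1. With 1 line left out, 31 to 184 bovine genes, 0 to 2 bovine members and 269 to 936 mouse genes were called: 36 bovine and 320 mouse genes without line 1, 101 and 283 without line 4, and 31 and 269 without line 11. Over those fits the uncalled values of CDKN1A (-0.062 to 0.068), MDM2 (-0.034 to 0.014), ZMAT3 (-0.043 to 0.046), Cdkn1a (-0.025 to 0.028) and Bax (-0.11 to 0.15) changed sign. The cause of these differences was not tested. A pseudocount of 10, a stricter filter, edgeR and TMM scaling changed no member's sign or call. Feeder levels lay above stem cell levels for all 10 members also by percentile rank and without line 4. The share of all genes that do so is not known. Counting error limits bovine GDF15 most.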

Other observations

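The changes of the 10 members within a line, set beside each other in the 2 species of the same library, gave a Pearson r over the 10 members of 0.44 in line 1, 0.15 in line 2, -0.34 in line 4, 0.59 in line 8 and -0.30 in line 11. These are descriptions over 10 genes that share a library. BAX in line 2 had the largest shared difference, at -0.90 on the log2 scale in the bovine table and -0.64 in the mouse table, and without line 2 mouse Bax was at 0.15 with an adjusted p of 0.306 (limma). Line 2 also departed most from the mean change over all tested genes in both tables, with a standard deviation of 0.43 in log2 units for bovine genes and 0.46 for mouse genes, where the other lines had 0.34 to 0.41 (bovine) and 0.33 to 0.45 (mouse).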
